A study of Mus musculus with 6 samples.

Results

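The genes described here are the protein-coding members of the histone clusters, chosen as all genes of the annotation (GENCODE M21, Ensembl 94) with the biotype protein_coding and a symbol that starts with Hist1h, Hist2h, Hist3h or Hist4h. The rule found 67 of 53458 genes, 6 for the linker histone H1, 18 for H2A, 18 for H2B, 12 for H3 and 13 for H4. They were measured by RNA-seq in AML blasts from the bone marrow of mice with 2 genotypes, Cebpa-/p30 Tet2+/+ (mice 19, 23 and 24) and Cebpa-/p30 Tet2-/- (mice 5, 7 and 8), where the numbers are those of the sample labels and each library stands for 1 mouse. The study gave marrow of each donor to several recipients, and the labels do not name the donors. Mice of 1 genotype may therefore share a donor. Both Tet2 alleles were deleted in the Tet2-/- mice. Both genotypes carried a deleted Cebpa allele and the p30 allele, which gives only the short form of the transcription factor CEBPA, and in both the deletions were induced with Mx1-Cre by Poly(I)-Poly(C) after marrow of individual donors (C57BL/6 in the labels, C57BL/6J in the study) had been transplanted into lethally irradiated congenic C57BL/6J.SJL females. Mx1-Cre acts in interferon-responsive cells and is not limited to myeloid cells. The blasts came from frozen marrow of moribund mice and were sorted as CD45.2+ cells without CD3, B220 or Ter119. The CD45.2 gate is meant to leave out cells of the CD45.1 recipients, but donor cells without recombination can pass it. Recipients were 10 to 12 weeks old when they were irradiated, per the study's methods.

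Replication-dependent histone genes supply the histones that package new DNA, and their mRNAs accumulate in S phase. Most of these mRNAs are not polyadenylated and end just after a conserved stem-loop, which is bound by the stem-loop binding protein SLBP and cut by a complex that includes the U7 snRNP. In differentiating and resting cells, some of the same genes also give polyadenylated mRNAs that run past the stem-loop. The libraries here were made with the TruSeq RNA v2 kit, which is known for selecting polyadenylated RNA. The sources used here name the kit but not this step, and if it was used, the values below leave out most of the stem-loop mRNA.

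The estimated counts per mouse lay between 13036643 and 32855343, and histone cluster genes took between 0.0295% and 0.0641% of them. Tet2, the targeted gene, had 73.6, 79.5 and 98.4 CPM (estimated counts divided by library size, per 1000000, with TMM factors) in the Tet2+/+ mice and 111, 79.4 and 96.7 CPM in the Tet2-/- mice. These values overlap, and a level over the whole gene does not check the labels, since the sources used here do not say which exons were removed. Markers of myeloid blasts were present in every mouse, with Mpo, the myeloperoxidase of primary granules, between 2662 and 4527 CPM.

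Of the 67 genes, 54 lie in the Hist1 cluster (GRCm38, chr13:21715763-23934851), 10 in Hist2 (chr3:96219865-96270132), 2 in Hist3 (chr11:58948920-58956830) and 1 in Hist4 (chr6:136801553-136804415). The annotated transcripts fell into 3 classes by their end. In 43 genes the transcript with the most reads held a histone stem-loop of 16 bases. In 22 of the 43 it stopped within 100 bases after the stem-loop, and in 21 it continued further. A polyadenylation signal was found near the end in 10 of these 21 and in 1 of the 22. The other 24 transcripts held no match to the stem-loop pattern. Several of these, such as those of Hist1h2ai and Hist1h4k, end at the stop codon in the annotation, so a stem-loop beyond it would not be seen. Others, such as that of Hist2h2be, run on for 2192 bases after it, so this class is mixed. The following sites, read from the annotation's transcripts (GENCODE M21, 5′ to 3′), are shown because the stem-loop is what sets these mRNAs apart from other mRNAs, and because they come from the member with the highest level per length of each of 4 types and from the near-identical H4 pair treated below. Capitals mark the stem-loop.
Hist1h1c: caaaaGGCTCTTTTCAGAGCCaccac
Hist2h2aa2: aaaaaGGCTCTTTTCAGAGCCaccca
Hist1h2bg: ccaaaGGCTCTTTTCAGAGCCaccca
Hist1h3e: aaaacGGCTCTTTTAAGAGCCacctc
Hist1h4m: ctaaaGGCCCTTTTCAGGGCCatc
Hist1h4n: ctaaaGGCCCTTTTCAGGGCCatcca
The form printed for Hist1h1c was found in 25 genes, of all types but H4. The form printed for Hist1h3e was found in 6 genes. All 11 H4 genes with a stem-loop had a different stem from the other types, most often the form printed for Hist1h4m, which was found in 7 of them.

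Transcripts that continue past the stem-loop held 61.1% of the summed CPM of the 67 genes, those without a stem-loop 27.2%, and those that end near it 11.7%. By TPM, which is per length, the shares were 40.5%, 31.2% and 28.3%. The median length was 1249 bases for transcripts that continue and 481 bases for those that end near the stem-loop, so a share of reads favours the former. Of the 20 genes with the highest CPM, 13 had a transcript that continues past the stem-loop. Reads were counted over whole genes and the classes come from annotated ends. The shares therefore do not show how many reads lie past the stem-loop or come from polyadenylated RNA.

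The promoters of 61 of the 67 genes were found in RefSeq (GRCm38.p6), each from 250 bases before to 50 bases after the start. The letters CCAAT on either strand were in 85.2% of them and in 37.9% of all 27025 promoters of the same length. All H1, H2A, H2B and H3 promoters held CCAAT, against 25% of the 12 H4 promoters. TATAAA, the core of the TATA box, was in 57.4% of the histone promoters and in 14.2% of all promoters. The octamer ATTTGCAT was in 21.3% against 1.75%, and within the histone genes in 7 of 17 H2A and 6 of 16 H2B promoters and in none of the other types. A match is a description of the letters in this window and not a binding site. In 12 cases an H2A and an H2B gene start back to back, 176 to 306 bases apart.

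In these blasts a few genes held most of the histone reads. The 20 highest took 83.7% of the summed CPM and Hist1h1c alone took 23.5%, while 50 genes had a mean of at least 1 CPM and 14 a mean of at least 10 CPM. Hist1h2aa and Hist1h2ba, which are known from the testis, had no read in any mouse, and Hist2h3b had reads in mouse 23 only. These 3 genes were not tested, and the other 64 passed the filter on low counts among 22170 genes tested.

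No histone cluster gene differed between the genotypes at an adjusted p under 0.05 in edgeR's quasi-likelihood test. Over all 22170 genes tested, 0.0451% were called lower and 0% higher in Tet2-/-. At an unadjusted p under 0.05, 1 of 64 members was lower and 0 were higher, against 5.12% and 3% of all genes tested. Without mouse 7 the members lower at this threshold numbered 7, against 4.97% of all genes tested in that fit, and without mouse 19 they numbered 3, against 4.98%. DESeq2 on the same counts called 1 member lower, Hist1h4m, and 0 higher, against 1.47% and 0.266% of all genes. The median log2 fold change of the 64 genes was -0.09, against 0.00 over all genes tested, with 39 below 0 and 25 above. Without mouse 5 the count turned to 25 below 0 and 39 above. By type, the genes above 0 numbered 0 of 6 for H1, 10 of 17 for H2A, 2 of 17 for H2B, 6 of 11 for H3 and 7 of 13 for H4, with medians of -0.26, 0.35, -0.23, 0.11 and 0.13. With library size scaling these counts were 0, 9, 2, 4 and 5, and the medians of H3 and H4 turned to -0.07 and -0.08. Without mouse 7 the medians of the 5 types were -0.83, 0.02, -0.86, -0.22 and -0.39. Without mouse 5 they were 0.00, 0.20, -0.00, 0.22 and 0.16. Of the 64 fitted changes, 60 were smaller than 1 on the log2 scale. With 3 mice against 3, an exact two-sided permutation test of 1 gene cannot go below p = 0.1.

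**Figure D1:**
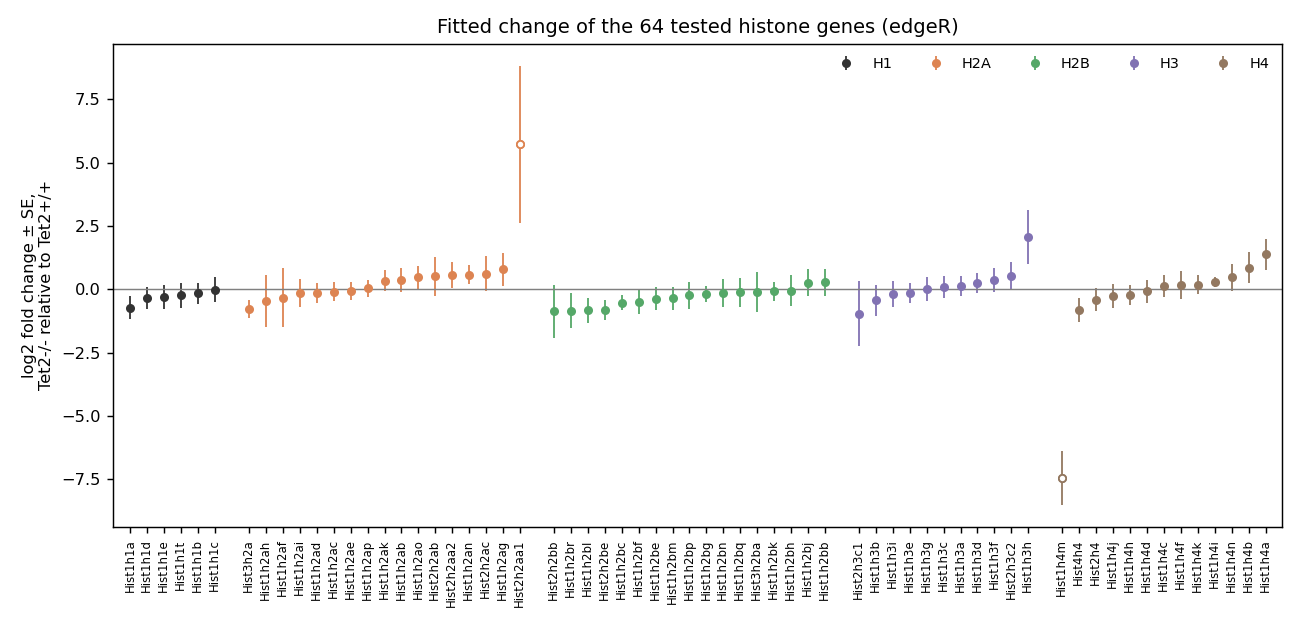
Fitted log2 fold change, Tet2-/- relative to Tet2+/+, of each of the 64 tested histone genes, ordered within histone type, with bars for the standard error (edgeR). Open points are genes with 0 reads in every mouse of one genotype (Hist1h4m and Hist2h2aa1), whose fitted value depends on the prior count and is no measure of size. Of the 64 points, 39 are below 0 and 25 above.

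The values of the 2 groups did not overlap for 6 of the 64 genes. Hist1h2bc and Hist1h4m were lower in all Tet2-/- mice, against 7.94% of all genes tested, and Hist1h2an, Hist1h3h, Hist1h4a and Hist1h4b were higher in all of them, against 6.41% of all genes. Hist1h2bc, an H2B gene whose partner Hist1h2ac starts 251 bases away on the opposite strand, had 20.7, 36.8 and 20.7 CPM in Tet2+/+ and 16, 20.1 and 18.4 CPM in Tet2-/-. The lowest Tet2+/+ value and the highest Tet2-/- value thus differ by less than 1 CPM. Its log2 fold change was -0.52 ± 0.28 (SE), with an edgeR adjusted p of 0.674, and -0.21 without mouse 23, the highest of the 6. The 4 genes that were higher had means of at most 1.68 CPM over the 6 mice, and for Hist1h4a, an H4 gene, the log2 fold change was 1.38 ± 0.60 (SE, edgeR adjusted p = 0.623).

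The summed level differed more among the Tet2-/- mice than between the genotype means. The summed level of the 67 genes was 447, 547 and 557 CPM in Tet2+/+ mice 19, 23 and 24 (mean 517 ± 60.6, SD, n = 3), and 307, 739 and 334 CPM in Tet2-/- mice 5, 7 and 8 (mean 460 ± 242, SD, n = 3). Mouse 7 was above, and mice 5 and 8 below, all 3 Tet2+/+ mice. The highest Tet2-/- mouse had 2.41 times the level of the lowest, against 1.25 times in Tet2+/+. With libraries scaled by their size only, the sums were 445, 604 and 607 CPM in Tet2+/+ and 295, 641 and 333 CPM in Tet2-/-. Mouse 7 then lay closer to mice 23 and 24, and mice 5 and 8 again had the lowest sums. The TPM sums of the 67 genes were 350, 432 and 397 in Tet2+/+ and 254, 526 and 304 in Tet2-/-, with mouse 7 the highest and mice 5 and 8 the lowest. Without mouse 7, the log2 ratio of the summed CPM, Tet2-/- to Tet2+/+, went from -0.17 to -0.69, and without mouse 5 to 0.05.

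Gene by gene, mouse 7 had the highest CPM of the 6 mice in 36 of the 64 genes (56.2%), against 22.7% of all genes tested, and the lowest in 1 of them (1.56%), against 25.7%. Mouse 5 had the lowest CPM in 23 genes (35.9%), against 13.6% of all genes. With library size scaling, mouse 7 was highest in 31.2% of the 64 genes and in 14% of all genes. The genes share their 6 libraries and many share sequence, so these counts are a description of the libraries and not of 64 independent measurements. In bulk RNA, a different share of cycling or maturing cells and a different level per cell cannot be told apart.

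**Figure D2:**
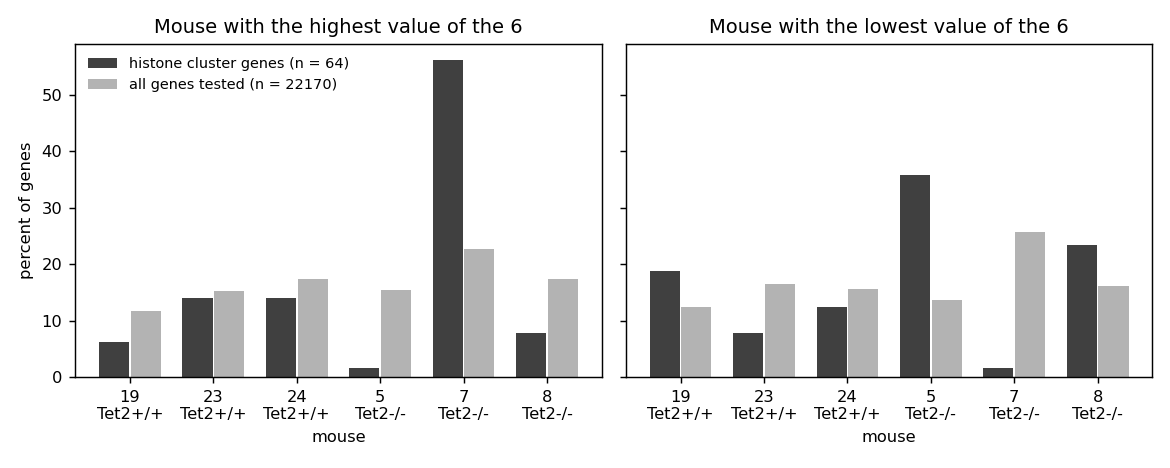
Percent of genes in which each mouse had the highest (left) or the lowest (right) CPM of the 6 mice, for the 64 tested histone cluster genes (dark bars) and all 22170 genes tested (light bars). Mouse 7 was highest in 56.2% of the histone genes and in 22.7% of all genes.

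The linker histones H1, which bind DNA between nucleosomes, had the widest spread of the 5 types within Tet2-/-, where the highest mouse had 3.14 times the level of the lowest. The summed CPM of the 6 H1 genes was 145, 141 and 182 in Tet2+/+ and 86.5, 268 and 85.4 in Tet2-/-. Hist1h1c (chr13:23738808-23740367, plus strand), a somatic H1 gene and the highest member by CPM and by TPM, had 113, 90.3 and 141 CPM in Tet2+/+ and 68.3, 216 and 57.8 CPM in Tet2-/-. The means were 115 ± 25.6 and 114 ± 88.7 CPM (SD, n = 3 each), and the log2 fold change was -0.01 ± 0.50 (SE, edgeR adjusted p = 0.998). Equal means thus stand for Tet2-/- mice on both sides of every Tet2+/+ mouse. Hist1h1d and Hist1h1e, further somatic H1 genes, were also highest in mouse 7, at 29.8 and 12.7 CPM, and lowest in mouse 5, at 10.1 and 3.70 CPM. All 6 H1 genes had a log2 fold change below 0, between -0.72 and -0.01, and with RLE factors 5 of 6 did. Without mouse 5, 3 of the 6 were below 0.

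H2A and H2B form the dimers of the nucleosome core. The 18 H2A genes summed to 73.5, 79.8 and 76.3 CPM in Tet2+/+ and 58.8, 113 and 62.3 CPM in Tet2-/-. Hist1h2ac had 31.6, 34.9 and 24.7 CPM in Tet2+/+ and 16.4, 45.4 and 24.4 CPM in Tet2-/-. Hist3h2a, a further H2A gene, had 7.90, 19.1 and 21.1 CPM in Tet2+/+ and 9.40, 9.19 and 9.66 CPM in Tet2-/-, where mouse 7 was the lowest, and mouse 19 of Tet2+/+ was the lowest of all. The log2 fold change of Hist3h2a was -0.77 ± 0.37 (SE, edgeR adjusted p = 0.654).

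The 18 H2B genes summed to 134, 200 and 194 CPM in Tet2+/+ and 80.8, 207 and 102 CPM in Tet2-/-. Among the types, this sum had the lowest ratio of Tet2-/- to Tet2+/+, 0.738, and 15 of 17 tested H2B genes had a log2 fold change below 0, with TMM, RLE and library size scaling alike. Without mouse 5 this count was 9 of 17. Entered as 1 row of the edgeR fit, the H2B sum gave a log2 fold change of -0.44 ± 0.37 (SE, adjusted p = 0.806). Hist2h2be (chr3:96221119-96223738, plus strand), the second-highest gene by CPM, has a transcript without a stem-loop and with a polyadenylation signal near its end. It had 20.1, 40.2 and 53.2 CPM in Tet2+/+ and 16.6, 29.2 and 18.4 CPM in Tet2-/-, so the groups overlap through mouse 19. Its log2 fold change was -0.82 ± 0.39 (SE, edgeR adjusted p = 0.646), -0.50 without mouse 24 and -1.13 without mouse 19, and it shares only 2.82% of its 31-base words with other genes.

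H3 and H4 form the tetramer at the centre of the nucleosome. The 12 H3 genes summed to 37.7, 44.3 and 39.3 CPM in Tet2+/+ and 28.0, 58.1 and 27.1 CPM in Tet2-/-, and mouse 7 was the highest of the 6 in 9 of 11 tested H3 genes. Hist1h3e, the highest H3 gene per length, had 7.24, 10.8 and 10.5 CPM in Tet2+/+ and 6.33, 13.5 and 6.08 CPM in Tet2-/-. The 13 H4 genes encode 1 protein from 12 different coding sequences. Their sum was 57.2, 81.6 and 65.8 CPM in Tet2+/+ and 52.6, 93.9 and 57.4 CPM in Tet2-/-. Hist1h4i (chr13:22040636-22041362, minus strand), the highest H4 gene by CPM and by TPM, had the smallest standard error of the 20 highest genes, with 19.5, 25.1 and 19.4 CPM in Tet2+/+ and 24.9, 30.9 and 22.7 CPM in Tet2-/-. Its log2 fold change was 0.29 ± 0.21 (SE, edgeR adjusted p = 0.764). Hist4h4, the only gene of the Hist4 cluster, had 11.4, 18.3 and 19 CPM in Tet2+/+ and 4.68, 16.5 and 6.62 CPM in Tet2-/-.

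**Figure D3:**
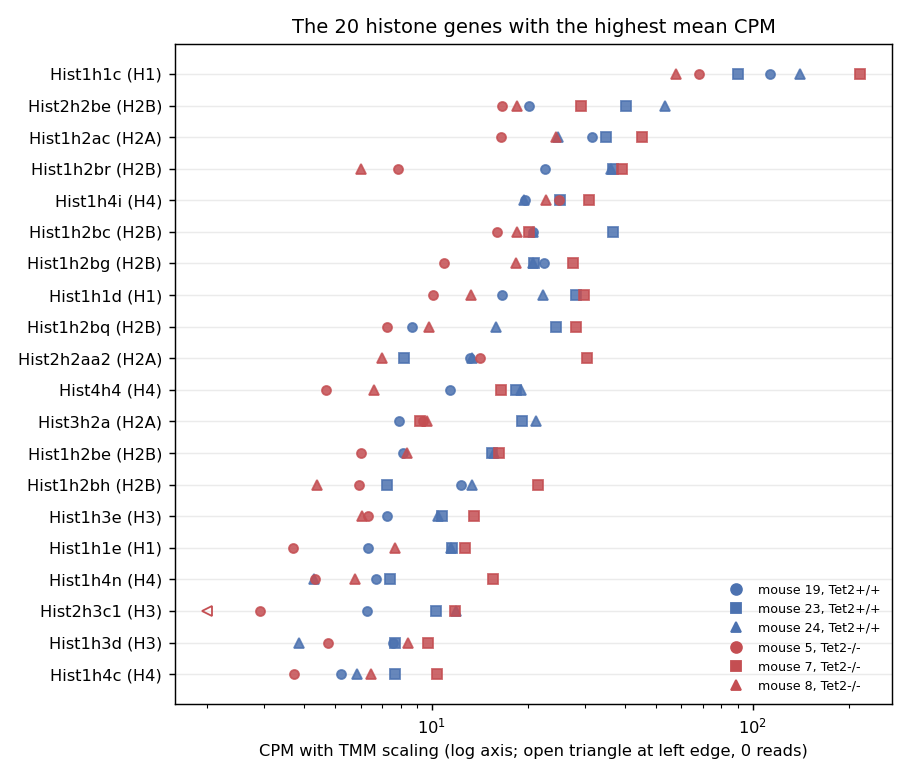
CPM (log axis) of the 20 histone genes with the highest mean, 1 point for each mouse, blue for Tet2+/+ and red for Tet2-/-. An open triangle at the left edge marks 0 reads. The red square, mouse 7, is at or near the right of most rows and the red circle and triangle, mice 5 and 8, at the left.

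Within Tet2-/-, mouse 7 was the highest and mouse 5 the lowest in each of the 3 end classes. Transcripts that continue past the stem-loop summed to 279, 313 and 342 CPM in Tet2+/+ and 185, 474 and 199 CPM in Tet2-/-. Those that end near it summed to 57.5, 46.5 and 50.8 CPM in Tet2+/+ and 44.8, 96.6 and 46.7 CPM in Tet2-/-. Those without a stem-loop summed to 110, 188 and 165 CPM in Tet2+/+ and 76.8, 169 and 87.9 CPM in Tet2-/-. The ratio of mouse 7 to mouse 5 was 2.56, 2.16 and 2.19 in these classes, and mouse 7 was above every Tet2+/+ mouse in the classes with a stem-loop and below mouse 23 in the class without one. Small RNA genes whose products lack a poly(A) tail were also compared. The summed CPM of all snRNA, snoRNA and scaRNA genes was 182, 162 and 142 in Tet2+/+ and 114, 176 and 125 in Tet2-/-. Mouse 7 was above mice 5 and 8 here too, but below mouse 19, and the part of this in the histone values was not tested. The 8 measured RNAs of a list of abundant RNAs without a tail, such as Rn7sk, summed to 3.59, 11.5 and 1.83 CPM in Tet2+/+ and 9.11, 5.27 and 6.51 CPM in Tet2-/-, with no gene called.

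**Figure D4:**
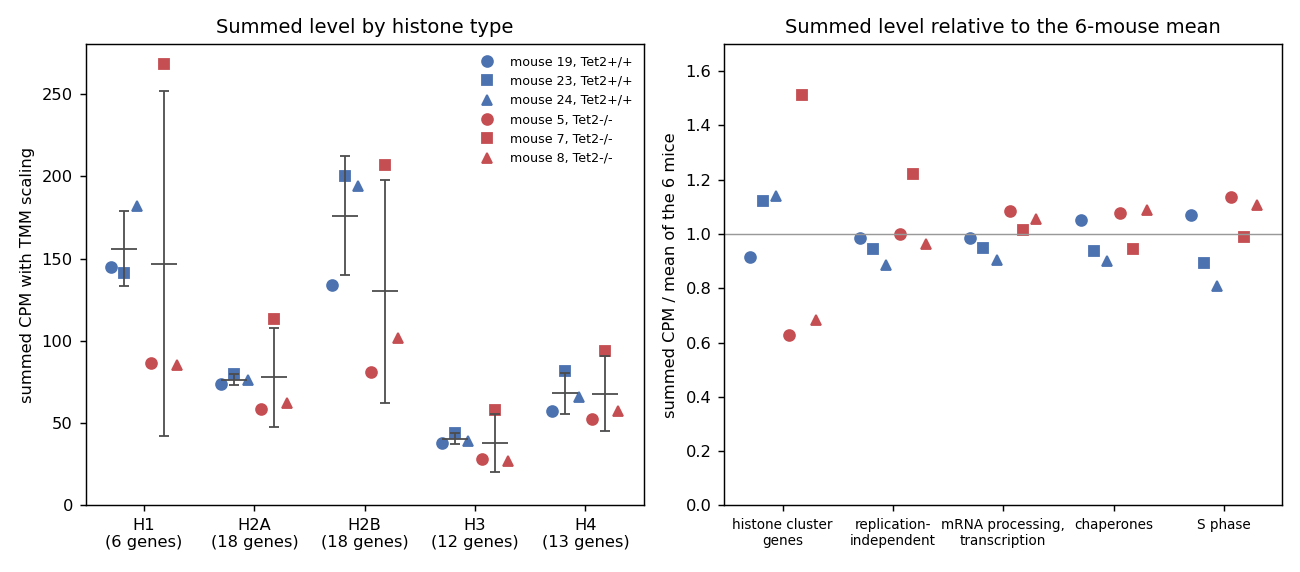
Left, summed CPM of the genes of each histone type in each mouse, with bars for the group mean and SD (n = 3). Right, summed CPM of the 67 histone cluster genes and of 4 lists of related genes, divided by the mean of the 6 mice. Mouse 7 had the highest sum of every histone type, whereas in the S phase list it lay below mice 5 and 8.

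The genes that make or handle histone mRNA and protein did not follow the same order of mice. S phase genes (28 genes such as Pcna, the replication clamp, and the Mcm helicase subunits) summed to 3748, 3132 and 2829 CPM in Tet2+/+ and 3979, 3471 and 3885 CPM in Tet2-/-, so that mouse 7, the highest in histone RNA, was the lowest Tet2-/- mouse. None of the 28 was called by edgeR or DESeq2 in either direction. At an unadjusted p under 0.05, 3 were higher and 0 lower, against 3% and 5.12% of all genes tested. A log2 fold change above 0 was found in 26 of the 28, against 11112 of all 22170 genes. The median was 0.19, which was 0.03 with library size scaling. In 5 of the 28 all Tet2-/- mice were above all Tet2+/+ mice, against 6.41% of all genes tested. Mcm2 is also in the list of chaperones below, and Slbp, Ccne1 and Ccne2 are also in the list of processing genes, so Slbp is 1 of the 3 and 1 of the 5 here and is counted again there. Pcna had 294, 261 and 201 CPM in Tet2+/+ and 195, 287 and 303 CPM in Tet2-/-. Rrm2, a ribonucleotide reductase subunit, had 220, 111 and 175 CPM in Tet2+/+ and 269, 294 and 195 CPM in Tet2-/-. Ccne2, the cyclin E2 gene, had 46.7, 36.4 and 29.9 CPM and 65.9, 47.4 and 48.7 CPM, with groups that do not overlap and a log2 fold change of 0.52 ± 0.23 (SE, edgeR adjusted p = 0.628).

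Among 25 genes for the processing and transcription of histone mRNA, 0 were called and the median log2 fold change was 0.16. At an unadjusted p under 0.05, 1 was higher and 0 were lower, against 3% and 5.12% of all genes tested. All Tet2-/- mice were above all Tet2+/+ mice in 6 of the 25 and below them in 1, against 6.41% and 7.94% of all genes tested. The gene higher at an unadjusted p under 0.05 was Slbp, with 118, 102 and 97.5 CPM in Tet2+/+ and 148, 139 and 125 CPM in Tet2-/-, so the groups did not overlap. Its log2 fold change was 0.37 ± 0.16 (SE, edgeR adjusted p = 0.615). Npat, the coactivator of histone gene transcription, was the 1 gene with all Tet2-/- mice below, at 31.3, 31.5 and 33.2 CPM in Tet2+/+ and 30.7, 24.4 and 29.3 CPM in Tet2-/-, and its log2 fold change was -0.19 ± 0.17 (SE, edgeR adjusted p = 0.822). Casp8ap2 and Lsm11, which act in the histone locus body and in the U7 snRNP, had log2 fold changes of 0.21 ± 0.16 and 0.18 ± 0.21 (SE).

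Of 28 histone chaperone genes, 0 were called and the median was 0.08. At an unadjusted p under 0.05, 1 was higher and 0 were lower, against 3% and 5.12% of all genes tested. The 1 gene was Asf1b, which carries new H3 and H4 to chromatin, with 70.3, 44.2 and 49.8 CPM in Tet2+/+ and 103, 102 and 77.3 CPM in Tet2-/-. Its groups did not overlap, and the log2 fold change was 0.78 ± 0.23 (SE, edgeR adjusted p = 0.491). Chaf1a, the large subunit of the CAF-1 complex, and Nasp, a carrier of H3 and H4, had log2 fold changes of 0.32 ± 0.18 and 0.08 ± 0.23 (SE).

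Replication-independent histone genes, most of which give polyadenylated mRNA throughout the cell cycle, had a summed CPM of 3312, 3168 and 2970 in Tet2+/+ and 3362, 4102 and 3229 in Tet2-/-. CPM is not per length, so their order of mice and not their level is set beside that of the cluster genes. Mouse 7 was the highest for H3f3a and H3f3b, which encode H3.3, at 1270 and 1209 CPM against at most 1045 and 887 CPM in the other mice. Of 11 tested genes, 0 were called and the median log2 fold change was 0.27. At an unadjusted p under 0.05, 1 was higher and 1 lower, against 3% and 5.12% of all genes tested. The higher gene was H2afv, an H2A.Z variant (0.39 ± 0.16, SE, edgeR adjusted p = 0.604), and the lower was H2afy2, a macroH2A gene (-1.12 ± 0.40, SE, edgeR adjusted p = 0.584). All Tet2-/- mice were above all Tet2+/+ mice for 2 of the 11, H2afv and H2afz, and below them for 1, H2afy2, against 6.41% and 7.94% of all genes tested. H2afx and H2afz, the genes of the variants H2A.X and H2A.Z, had log2 fold changes of 0.57 ± 0.28 and 0.45 ± 0.23 (SE, edgeR adjusted p = 0.654 and 0.66). H1f0, the H1 gene of differentiated cells, had 148, 187 and 320 CPM and 237, 283 and 158 CPM. H1fx had at most 3.03 CPM, and Cenpa, the centromeric H3, had a log2 fold change of 0.34 ± 0.20 (SE).

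The 12 myeloid blast markers summed to 10406, 8523 and 9249 CPM in Tet2+/+ and 10109, 11481 and 7956 CPM in Tet2-/-. Mouse 7 was the highest of the 6 mice in 5 of the 12 and the lowest in 3. The 5 were Itgam, Csf3r and Ly6g, genes of the granulocytic lineage, and Fcgr3 and Ptprc. Elane and Prtn3, also on the list, were highest in mouse 5, at 1333 and 1351 CPM, against 1008 and 708 CPM in mouse 7. Itgam had 1538, 765 and 1098 CPM in Tet2+/+ and 1229, 3134 and 1381 CPM in Tet2-/-. Csf3r had 429, 260 and 531 CPM in Tet2+/+ and 617, 918 and 227 CPM in Tet2-/-. Ly6g had 194, 34.8 and 34 CPM in Tet2+/+ and 338, 522 and 33.5 CPM in Tet2-/-. Mouse 5, with the lowest histone sum, came next after mouse 7 for Csf3r and Ly6g. Ctsg, a protease of primary granules, and Cebpa were among the 3, at 261 and 75.7 CPM. In 2 of the 12 all Tet2-/- mice were below all Tet2+/+ mice and in 0 above, against 7.94% and 6.41% of all genes tested, and none was called. These were Cd34, a progenitor marker, with 170, 310 and 193 CPM in Tet2+/+ and 90, 32.1 and 132 CPM in Tet2-/- (log2 fold change -1.41 ± 0.50, SE, edgeR adjusted p = 0.582), and Mpo, with 4527, 4110 and 4230 CPM and 3394, 3091 and 2662 CPM (-0.49 ± 0.25, SE, edgeR adjusted p = 0.664). Kit, also a progenitor marker, had 98.1, 90.3 and 141 CPM in Tet2+/+ and 65.6, 108 and 41.7 CPM in Tet2-/-, so that within Tet2-/- Cd34 and Kit ran in opposite order. Of the other lists, the 8 T and NK cell markers summed to 32.2, 44.0 and 15.5 CPM in Tet2-/- mice 5, 7 and 8 and to between 43.1 and 45.6 CPM in Tet2+/+. Of the 8, DESeq2 called 1 lower, against 1.47% of all genes, and edgeR called 0. At an unadjusted p under 0.05 in edgeR, 1 was lower, against 5.12% of all genes tested. This was Ncr1, an NK cell receptor gene, with 4.49, 3.64 and 5.35 CPM in Tet2+/+ and 1.42, 1.16 and 0.488 CPM in Tet2-/-, which do not overlap (DESeq2 log2 fold change -2.11, adjusted p 0.00264, against an edgeR adjusted p of 0.321). The 10 B cell markers summed to between 23.5 and 85.3 CPM and were lowest in mouse 7. The 5 megakaryocyte markers summed to 45.5, 44.2 and 24.6 CPM in Tet2+/+ and 15.2, 26.3 and 9.17 CPM in Tet2-/-. Of the 4 tested, 3 had a log2 fold change below 0 and 0 were called. At an unadjusted p under 0.05, 1 was lower, against 5.12% of all genes tested. This was Itga2b, an integrin gene of this lineage, with groups that did not overlap (-1.34 ± 0.43, SE, edgeR adjusted p = 0.541). The 9 measured erythroid markers summed to 146, 6.16 and 6.2 CPM in Tet2+/+ and 14.6, 15.3 and 7.76 CPM in Tet2-/-, so that mouse 19 stood far above the other 5. All 8 tested erythroid genes had a log2 fold change below 0 and 0 were called. At an unadjusted p under 0.05, 1 was lower, against 5.12% of all genes tested. This was Alas2, a heme synthesis gene at no more than 0.359 CPM, again with groups that did not overlap (edgeR adjusted p = 0.561). Genes of these lists were present at low levels in all mice and none of the lists had all its defining markers at 0, and their part in the histone values was not tested.

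One H4 gene, Hist1h4m, carried the only call. Hist1h4m (chr13:21811746-21812147, plus strand) had 25, 10 and 19 reads, or 1.5, 0.535 and 1.34 CPM, in the Tet2+/+ mice and 0 reads in every Tet2-/- mouse. Its mean in Tet2+/+ was 1.12 ± 0.515 CPM (SD, n = 3), 7.48-fold a floor of 3 reads per library set for Tet2-/-. This floor covers counting only and not the assignment of reads between near-identical genes, so it gives no bound on the change. edgeR gave an adjusted p of 0.200, while DESeq2 gave 0.000502. Its near-identical neighbour Hist1h4n (chr13:21831767-21832196, minus strand) had 6.70, 7.39 and 4.30 CPM in Tet2+/+ and 4.33, 15.5 and 5.75 CPM in Tet2-/-.

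The 2 transcripts can be told apart by very little. Over the 402 bases of the Hist1h4m transcript, that of Hist1h4n differs at 1 base, G36A, counted from 1 at the 5′ end of the transcript (Hist1h4m base first), 3 bases before the start codon, and it runs on for 28 more bases at the 3′ end. The bases around the difference are printed because every read that could separate the 2 genes within the shared stretch must cover this base. The capital marks it.
Hist1h4m: acagttttgtcttcGtcatgtctggtcgt
Hist1h4n: acagttttgtcttcAtcatgtctggtcgt
Salmon divides reads that fit several transcripts by an estimate, so which of the 2 genes a read belongs to is uncertain. The summed level of both was 8.19, 7.92 and 5.63 CPM in Tet2+/+ and 4.33, 15.5 and 5.75 CPM in Tet2-/-. The sum had a log2 fold change of 0.23 ± 0.50 (SE, edgeR adjusted p = 0.936, DESeq2 adjusted p = 0.962), and leaving out 1 mouse at a time moved it between -0.53 (without mouse 7) and 0.55 (without mouse 5). DESeq2 thus did not call the sum of the pair. Of the mean sum of 7.25 CPM in Tet2+/+, Hist1h4m made up 1.12 CPM, and the SD of the sum in Tet2-/- was 6.08 CPM. The sum therefore cannot show whether Hist1h4m alone changed.

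**Figure D5:**
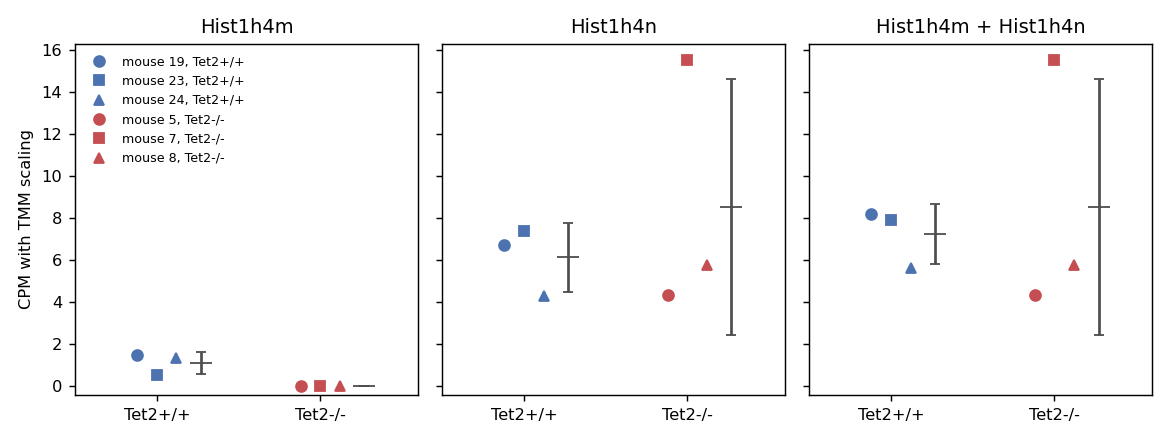
CPM of Hist1h4m, of Hist1h4n and of their sum in each mouse, with the group mean and SD (n = 3) as a bar to the right of the points. Hist1h4m was at 0 in the 3 Tet2-/- mice, and in the sum the groups overlapped, with 15.5 CPM in mouse 7.

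Shared sequence is common among these genes. The median gene had 61.9% of its 31-base words in common with a transcript of another gene, and 41 of 67 shared more than 50%. Besides Hist1h4m and Hist1h4n, 3 pairs shared at least 90% of the words of the shorter transcript. Hist2h2aa1 and Hist2h2aa2 are identical over 528 bases, and the reads went to Hist2h2aa2 in every mouse, with some to Hist2h2aa1 in mouse 7 only. All 31-base words of both are also in transcripts of genes outside the clusters, Gm20633 for the first and Gm20634 for the second, so the sum of the pair does not settle the assignment. Their sum was 13.2, 8.19 and 13.4 CPM in Tet2+/+ and 14.1, 31.5 and 7 CPM in Tet2-/-, again highest in mouse 7. Hist1h2ao and Hist1h2ap are identical over 452 bases, and their sum was 4.67, 5.51 and 5.70 CPM and 5.28, 8.81 and 5.43 CPM. Hist1h2bq and Hist1h2br summed to 31.2, 61.3 and 52.1 CPM and 15.1, 67.3 and 15.8 CPM, with a log2 fold change of -0.56 ± 0.61 (SE, edgeR adjusted p = 0.853), which was -1.64 without mouse 7 and -0.21 without mouse 5. None of the 4 sums was called by edgeR or by DESeq2.

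In some genes the reads moved between transcripts from mouse to mouse. Of the 5 genes with several measured transcripts, Hist2h3c1 has transcripts of 1820 and 1825 bases, and all of its reads went to the shorter in mouse 19 (105 reads) and to the longer in mice 23, 24, 5 and 7 (192, 169, 92.4 and 184 reads), while mouse 8 had 0 reads of either. All of its 31-base words are also in transcripts of other genes, among them the gene model Gm20634, and its reads could not be told from theirs. Hist1h2bq had 0 and 0 reads of its 381-base transcript in mice 19 and 24, 32.4 in mouse 23, and 91.9, 70.2 and 74.7 in the Tet2-/- mice. When counts were scaled by transcript length, the log2 fold change of this gene went from -0.12 to 0.92 (edgeR adjusted p = 0.979 and 0.736).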

How the data were processed

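RNA-seq libraries of 6 mice, 3 per genotype, were used. Per the labels and methods, 200 ng of RNA from sorted cells went into TruSeq RNA v2 libraries sequenced on a NextSeq 500. The estimated count values and the TPM values per transcript were deposited by the authors as Salmon 0.12.0 gave them, against GRCm38 (Ensembl 94). Salmon splits reads between similar transcripts, and 1 library per mouse was not replicated.

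Counts were summed per gene and rounded, and genes with a sum of normalized counts of at least 10 were tested (edgeR 4.0.16, TMM factors, quasi-likelihood, Benjamini-Hochberg, threshold 0.05; DESeq2 1.42.0 as an alternative, R 4.3.3). TMM factors were 0.867 in mouse 7 and between 0.963 and 1.11 in the others. The script was tested on simulated data. Near-identical genes share at least 90% of the 31-base words of the shorter transcript. Tables were made with Python 3.11.15 and pandas 2.3.3.

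The genes named were the 20 members with the highest CPM, those called by edgeR or DESeq2, up to 10 with the lowest unadjusted p under 0.05, the highest of each type by TPM, and set genes of the other lists. Other names (Ncr1, Itga2b, Alas2, H2afv, H2afy2, Hist1h4a, Hist1h2an, Hist1h3h, Hist1h4b, Hist2h2aa1, Hist1h2ao, Hist1h2ap and the genes named only for 0 reads) were chosen after their values were seen. The members and lists were chosen with earlier results of these data known. SD values measure only the spread between these samples. The SE of a log2 fold change was computed from the fold change and edgeR's F statistic, whose dispersion also draws on the other genes tested. Estimated counts carry counting and assignment error, and values at 0 were given a floor of 3 reads. Tet2 exons were not analysed here, and protein sequences only as translated coding sequences compared to count different proteins.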

Additional observations from a re-analysis of the deposited data

How the results depend on the processing

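Hist1h4m was called lower by DESeq2 on the same counts (1 member) and on length-scaled counts (1 member), and by none of the other alternatives. At an unadjusted p under 0.05, members lower in Tet2-/- numbered 2 without a filter on low counts and 4 with library size only, and members higher numbered 1 with robust estimation. Leaving out 1 mouse at a time gave 1 to 7 members lower, with 7 without mouse 7 and 3 without mouse 19, and 0 to 1 higher, and no member was called. It moved the median log2 fold change between -0.39 (without mouse 7) and 0.06 (without mouse 5), and the log2 ratio of the summed CPM, -0.17, between -0.69 (without mouse 7) and 0.05 (without mouse 5). With library size only, the median of all genes moved to -0.17, the members' median to -0.29, and the list medians to -0.01 (processing and transcription), 0.09 (replication-independent), -0.09 (chaperones) and 0.03 (S phase). The leave-one-out medians lay between 0.12 and 0.20, 0.12 and 0.33, and 0.03 and 0.15 for these lists, and between 0.10 and 0.31 for S phase genes.

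Of 21 named members, 11 changed sign under some alternative, none of them called in any. Hist1h1c went to 0.01 with DESeq2 and with RLE factors, Hist1h2bq to 0.92 and 0.93 on length-scaled counts with edgeR and DESeq2, and Hist1h4c to -0.08 with library size only. Leaving out 1 mouse at a time gave ranges of -0.87 to 0.31 for Hist1h1c, -0.79 to 0.05 for Hist1h1e, -0.58 to 0.20 for Hist1h2ac, -0.55 to 0.10 for Hist1h2bg, -1.08 to 0.32 for Hist1h2bh, -0.94 to 0.27 for Hist1h2bq, -0.01 to 0.50 for Hist1h3d, -0.62 to 0.05 for Hist1h3e, -0.30 to 0.42 for Hist1h4c, -0.28 to 0.79 for Hist1h4n and -0.13 to 0.94 for Hist2h2aa2. With no change of sign, it gave -2.65 to -0.37 for Hist2h3c1, -2.20 to -0.44 for Hist1h2br, -1.53 to -0.49 for Hist4h4, -1.13 to -0.50 for Hist2h2be, -1.10 to -0.52 for Hist3h2a, -0.93 to -0.05 for Hist1h1d, -0.86 to -0.09 for Hist1h2be, -0.67 to -0.21 for Hist1h2bc and 0.16 to 0.41 for Hist1h4i. Hist1h4m, with 0 reads in Tet2-/-, has no fitted size. The cause of these changes was not tested. DESeq2 on summed near-identical copies, leave-one-out on these sums and the fit of sums per type were chosen after the data were seen. No paired analysis was possible because the mouse numbers differ between the genotypes.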
